A study of Mus musculus with 3 samples.

Results

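Collecting duct principal cells were chosen by their measured UMI counts of marker genes in single-cell RNA libraries of whole mouse kidney. A barcode was kept when it held at least 200 genes and at most 50% of its UMIs (unique molecular identifiers, each counting 1 captured RNA molecule) from mitochondrial genes. It was called a principal cell when it held at least 4 UMIs of Aqp2 and Aqp3 together, at least as many of these as of the connecting tubule genes Slc8a1 and Calb1 together, and at most 1 UMI each of Slc12a3 and Slc12a1, the salt transporters of the distal convoluted tubule and the thick ascending limb. The rule found 1460 cells among 51795 kept barcodes of 60420 deposited. The db/m control library gave 561, the db/db control library 425 and the db/db fructose library 474, and sets of 3 values below follow this order.

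Principal cells line the collecting duct and set how much water and sodium leave with the urine. Vasopressin binds its V2 receptor on the blood side of these cells and raises cyclic AMP, which drives the water channel aquaporin-2 into the apical membrane and, over longer times, raises Aqp2 transcription. Aldosterone acts through the mineralocorticoid receptor on the epithelial sodium channel, and the enzyme made from Hsd11b2 keeps glucocorticoids away from that receptor.

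All mice were male and 28 weeks old when the kidneys were taken. The db/db mouse has no working leptin receptor and becomes obese and diabetic, and the db/m mouse is its heterozygous, lean control. From 8 weeks of age, for 20 weeks, db/m mice and 1 group of db/db mice ate a control diet without fructose, and the other db/db group ate a 60% fructose diet. There was 1 library per group and the labels do not give the number of mice behind it. No test was therefore possible, cells are not replicates, and differences between the groups cannot be told apart from differences between the 3 preparations. All intervals are 95% intervals that cover counting error only.

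Most members carried the markers of the label. Fxyd4, a sodium pump regulator of the collecting duct that the rule did not use, had a UMI in 84.7%, 73.4% and 76.2% of the members, against 7.21%, 6.77% and 5.04% of proximal tubule cells, which should lack it. Hsd11b2 had a UMI in 88.8%, 83.3% and 89.2%, against 7.95%, 10.4% and 7.24%. The median depth was 3440, 2670 and 3158 UMIs in the members and 1687, 1684 and 1603 in the proximal tubule cells. With each cell thinned to 1000 UMIs, which left out 18, 6 and 17 members and 956, 514 and 1423 proximal tubule cells, the member shares were 73.8%, 59.1% and 64.01% for Fxyd4 and 81.7%, 72.05% and 83.3% for Hsd11b2. Members with no UMI of either gene made up 4.81%, 8.47% and 5.91%.

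Beside the rule's own genes, 13 of the 15 transcripts most enriched in the members over the remaining kept barcodes were Mcoln3, Btc, Cldn4, Fxyd4, Scnn1b, Ptger1, Hsd11b2, Tmem45b, Stc1, Krt18, Kcne1, Aqp4 and Avpr2. They include the beta subunit of the epithelial sodium channel (Scnn1b), a potassium channel subunit (Kcne1), the tight junction protein claudin-4, a prostaglandin E2 receptor (Ptger1), the basolateral water channel aquaporin-4 and the V2 receptor. Because transcript counts chose the cells, this enrichment is a description.

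Principal cells made up 4.98% of kept barcodes in the db/m control library (Clopper-Pearson interval 4.59% to 5.40%), 2.003% in the db/db control library (1.82% to 2.20%) and 2.45% in the db/db fructose library (2.24% to 2.68%). Both db/db libraries thus had a lower share than the db/m library. Cells with at least 4 aquaporin UMIs numbered 672, 770 and 718 among kept barcodes. Of these, 21, 125 and 107 failed the connecting tubule condition and 90, 220 and 137 the Slc12a3 or Slc12a1 condition, so the rule set aside more aquaporin-bearing cells in the db/db libraries. Whether dissociation yielded principal cells equally in the 3 preparations was not tested.

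The sum of Aqp2 and Aqp3 UMIs per member had a median of 26, 15 and 26.5 and reached 945, 477 and 782. Members with 128 or more made up 15.9%, 4.94% and 17.1%, and members with 4 to 7 made up 23.9%, 29.4% and 23.2%. The db/db control library was thus the one with few cells rich in water channel transcripts. Its members were also the shallowest, with a median of 1103 genes against 1482 in the db/m library and 1513.5 in the fructose library. Aqp2 without Aqp3 was seen in 68, 84 and 70 members and Aqp3 without Aqp2 in 7, 6 and 9.

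**Figure D1:**
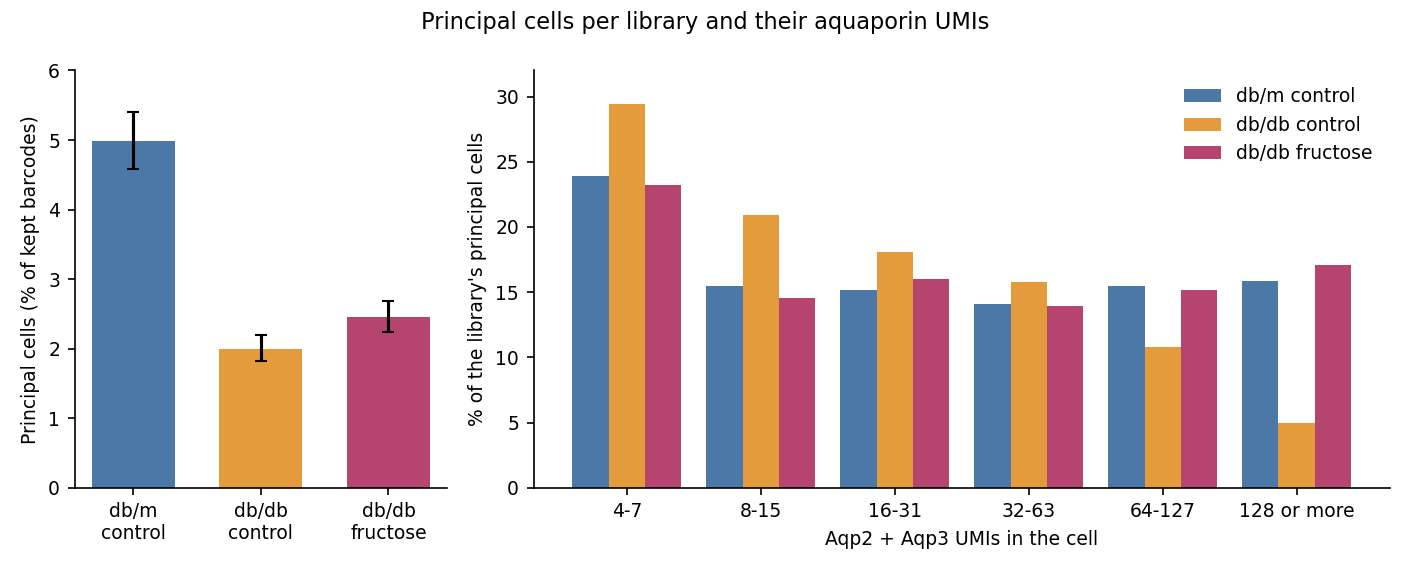
Left, principal cells as a percentage of kept barcodes in each library, with 95% Clopper-Pearson intervals. Right, the percentage of each library's principal cells by the sum of their Aqp2 and Aqp3 UMIs; the db/db control library has 4.94% of its members at 128 UMIs or more, against 15.9% and 17.1%.

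Cells just outside the threshold, with 3 aquaporin UMIs, numbered 73, 106 and 62, and cells just inside, with 4, numbered 57, 58 and 42. Fxyd4 had a UMI in 17.8%, 22.6% and 30.6% of the former and in 54.4%, 39.7% and 33.3% of the latter. Levels are given as CPM, the UMIs of a gene summed over the members per 1000000 UMIs of all genes. Avpr2, the gene of the V2 receptor, stood at 112, 38.3 and 73.8 CPM in members with 4 to 7 aquaporin UMIs and at 573, 309.7 and 647 CPM in those with 8 or more, and the db/db control library was lowest in both bands. In the band of 4 to 7, the proximal tubule gene Slc34a1 stood at 1292, 1414 and 1660 CPM, above Fxyd4 at 593, 310 and 361 CPM. With 8 or more, Slc34a1 stood at 388, 563 and 635 CPM and Fxyd4 at 4124, 3699 and 3348 CPM.

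Several facts of the libraries bear on every comparison. The members held 2480882, 1359396 and 2021620 UMIs in all. Mitochondrial genes gave a median of 16.4%, 26.4% and 12.9% of a member's UMIs, and 15.5%, 25.8% and 10.9% in the remaining barcodes, so the db/db control library was high in both. Proximal tubule markers, a gauge of free RNA, stood in the members at 27.8%, 38.4% and 24.8% of their level in the whole library (the median of 15 markers, none at 0). Their summed level was 4486, 3471 and 3291 CPM in the members and 18982, 10789.6 and 14698 CPM in the remaining barcodes. High doublet scores were found in 6.95%, 16.9% and 12.4% of the members. The share of barcodes called high was fixed beforehand at 0.8% per 1000 barcodes, so it rises with library size. The libraries held 13524, 26513 and 20383 barcodes, in the same order as the member shares. These shares therefore cannot show which library's members held more doublets. No barcode was shared between members of different libraries, and 33, 20 and 19 members had a barcode that any other library also held. Alternative settings varied the mitochondrial limit, the free RNA and the doublets. Beyond these settings, the part of the library differences in the results below was not tested.

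A gene was measured when it reached 20 CPM in the higher library of a comparison, and a 1.5-fold ratio in either direction was the limit for calling it higher or lower. For db/db control over db/m control, 4.96% of 6821 measured genes were higher and 11.5% lower. For db/db fructose over db/db control, 20.0% of 7157 were higher and 2.84% lower. All genes together had a median log2 ratio of -0.16 in the first comparison and 0.26 in the second. With median-of-ratios size factors, which set that median to 0, the shares were 9.50% higher and 5.57% lower, and 7.07% higher and 7.04% lower. Higher genes made up 30.04% of the calls in the first comparison by CPM and 63.04% by size factors, and in the second 87.6% and 50.1%. Ratios below are log2 ratios of CPM, to be read against those medians, and size factors add 0.16 to the first and take 0.26 from the second. The comparisons share the db/db control library, so a low level there lowers the first ratio and raises the second. By CPM of UMIs outside the mitochondrial genome, the median of all genes was 0.012 in the first comparison and 0.056 in the second.

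The V2 vasopressin receptor was lowest in the db/db control library. Avpr2 (ENSMUSG00000031390, mm10 chrX:73892102-73895502, plus strand) stood at 515 CPM in the db/m control library (Poisson interval 487 to 544), at 247 CPM in the db/db control library (221 to 275) and at 578 CPM in the db/db fructose library (545 to 612). The interval of the db/db control library lay below the other two, apart from both. The first log2 ratio, of db/db control over db/m control, was -1.06 (-1.24 to -0.88), and the second, of db/db fructose over db/db control, was 1.22 (1.05 to 1.40). Under other settings the ratios ranged from -1.15 to -0.61 and from 0.95 to 1.25, and each was past 1.5-fold in 12 of 12 settings. A UMI of the receptor was found in 61.7%, 40.5% and 57.4% of the members, or 30.9%, 18.5% and 31.6% at 1000 UMIs per cell, against 1.75%, 1.55% and 1.26% of proximal tubule cells without thinning. The remaining barcodes held 18.1, 13.1 and 17.5 CPM.

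Aqp2 and Aqp3, the water channel genes of the apical and the basolateral membrane, chose the cells, so their levels are a description. Aqp2 stood at 13689, 9490.2 and 14674 CPM and Aqp3 at 2799, 1654 and 2993 CPM, both lowest in the db/db control library. The sequences upstream of Avpr2 and Aqp2 are shown as a description, and a link between the levels of receptor and channel was not tested. Each is the 250 bases before the RefSeq transcription start in GRCm38.p6, plus strand, 5′ to 3′, and capitals mark matches on either strand to the cyclic AMP response element half-site TGACG or the GATA site AGATAA.
Aqp2, chr15:99578806-99579055: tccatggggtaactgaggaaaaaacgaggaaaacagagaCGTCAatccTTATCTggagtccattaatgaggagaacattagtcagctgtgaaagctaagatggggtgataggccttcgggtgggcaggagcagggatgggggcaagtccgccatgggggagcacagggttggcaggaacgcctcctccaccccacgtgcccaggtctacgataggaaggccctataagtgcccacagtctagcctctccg
Avpr2, chrX:73891852-73892101: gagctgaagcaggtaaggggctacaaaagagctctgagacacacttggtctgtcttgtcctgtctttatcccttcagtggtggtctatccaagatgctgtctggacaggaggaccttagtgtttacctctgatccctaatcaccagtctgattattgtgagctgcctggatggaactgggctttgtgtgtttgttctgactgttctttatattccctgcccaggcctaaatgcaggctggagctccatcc
The Aqp2 window holds 1 match of each motif, both on the reverse strand, at 211 to 207 and 202 to 197 bases before the start, and they do not overlap. The Avpr2 window holds neither. Of 32851 mouse promoter windows of the same length, 17.8% hold the half-site letters, 9.99% the GATA letters and 1.18% both. A match of letters is a description, and no binding data were analysed here.

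Of 31 listed genes of vasopressin signalling and water handling, 2 are in the rule and 22 others were measured in each comparison. In db/db control over db/m control, 2 were higher and 1, Avpr2, was lower, beside 4.96% and 11.5% of all genes, with a median of -0.037 beside -0.16. The 2 higher were Pde4d, a phosphodiesterase that breaks down cyclic AMP, at 29.02, 59.6 and 57.9 CPM, and Akap13, an anchor of protein kinase A, at 40.7, 72.1 and 64.8 CPM. Both were at like levels in the db/db libraries, and in members with no intercalated marker UMI their first ratios were 0.51 and 0.27. In db/db fructose over db/db control, 3 were higher and none lower, beside 20.0% and 2.84% of all genes, with a median of 0.041 beside 0.26. With Avpr2 these were Prkar1a, a regulatory subunit of protein kinase A, at 332, 231 and 356 CPM, and Vapa, a membrane trafficking protein, at 123, 92.7 and 146 CPM. In members with no Slc8a1 or Calb1 UMI, the second ratios of Prkar1a and Vapa were -0.35 and -0.17. With size factors Avpr2 was the only one higher in that comparison, and in the first Prkacb, a catalytic subunit of protein kinase A at 30.6, 42.7 and 42.05 CPM, joined Pde4d and Akap13.

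Gnas, the stimulatory G protein subunit, was at 733, 685 and 799.9 CPM, with ratios of -0.098 and 0.22, and Adcy6, an adenylyl cyclase, at 119, 121 and 126 CPM, with ratios of 0.035 and 0.055. The basolateral water channel gene Aqp4 was at 258, 226 and 230.0 CPM, with ratios of -0.19 (-0.39 to 0.0066) and 0.026 (-0.18 to 0.24), and both intervals include 0.

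The aldosterone and sodium channel list had 28 genes, all measured. In db/db control over db/m control, 5 were higher and 4 lower (7 and 1 with size factors), with a median of -0.13. Of all genes, 4.96% were higher and 11.5% lower. The 4 lower genes were Hsd11b2 and the 3 subunits of the epithelial sodium channel. Hsd11b2 (ENSMUSG00000031891, mm10 chr8:105518755-105523988, plus strand) stood at 4758, 2781 and 4433 CPM, with ratios of -0.77 (-0.83 to -0.72) and 0.67 (0.62 to 0.73). Scnn1b, the beta subunit, stood at 539, 329 and 458 CPM, with ratios of -0.71 (-0.87 to -0.56) and 0.48 (0.31 to 0.64). Scnn1g, the gamma subunit, stood at 454, 285 and 455 CPM, with ratios of -0.67 (-0.84 to -0.51) and 0.68 (0.50 to 0.85). For these 3 genes the db/db control library was lowest. Scnn1a (ENSMUSG00000030340, mm10 chr6:125320659-125344943, plus strand), the alpha subunit, stood at 700.2, 454 and 347 CPM, with ratios of -0.63 (-0.76 to -0.49) and -0.39 (-0.54 to -0.23). It was lowest in the fructose library, while in the remaining barcodes its first ratio was 0.57, in the other direction. With size factors Hsd11b2 was still past 1.5-fold in the first comparison, at -0.61, and Scnn1a, Scnn1b and Scnn1g were not, at -0.46, -0.55 and -0.51. Over all other settings the first ratio was past 1.5-fold in 8 of 12 for Hsd11b2, 3 of 12 for Scnn1a, 7 of 12 for Scnn1b and 6 of 12 for Scnn1g, and below 0 in all of them.

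Sgk1, the kinase that aldosterone induces, was among the 5 higher genes. It stood at 138, 245 and 194 CPM, with ratios of 0.83 (0.60 to 1.05) and -0.33 (-0.55 to -0.12), and the remaining barcodes had a first ratio of 0.81. The others were Wnk1, a kinase that governs salt transport, at 110.0, 250.1 and 210.2 CPM, Fxyd2, a sodium pump regulator of other tubule segments, at 406, 865 and 475 CPM, and the steroid response genes Nr3c1 and Zbtb16. With free RNA subtracted, the first ratio of Wnk1 was -3.001 in place of 1.18, and its second ratio 4.27 in place of -0.25. In that setting the first ratio of Fxyd2 was 7.54 in place of 1.09, so the subtraction can give extreme ratios for single genes. Nr3c2, the mineralocorticoid receptor, stood at 72.6, 57.4 and 70.7 CPM.

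In db/db fructose over db/db control, 4 of the 28 were higher and 2 lower (1 and 6 with size factors), beside 20.0% and 2.84% of all genes, with a median of 0.18. Higher were Hsd11b2, Scnn1g, Zbtb16 and Klk1, the kallikrein gene of the connecting tubule, and lower were Fxyd2 and Tsc22d3, a steroid-induced leucine zipper gene at 48.8, 42.7 and 27.7 CPM. Klk1 stood at 750.1, 759 and 1452 CPM, but 5 cells held 65.99%, 25.3% and 65.7% of its UMIs. Its second ratio of 0.94 was -0.19 without the 5 members richest in it and -0.53 in members with no intercalated marker UMI.

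Potassium leaves through the channel made from Kcnj1, which stood at 462, 430.3 and 617 CPM with ratios of -0.10 and 0.52. Of 13 measured potassium, chloride and calcium channel genes, 2 were higher and 2 lower in the first comparison, beside 4.96% and 11.5% of all genes. In the second, 1 was higher and 1 lower, beside 20.0% and 2.84% of all genes. Lower in the first were Kcne1, at 403, 234 and 331 CPM with a ratio of -0.79 (-0.97 to -0.60), and Kcnj10, a basolateral potassium channel, at 171, 104 and 141 CPM with a ratio of -0.72 (-1.002 to -0.44). Higher there were Kcnk5, a basolateral potassium channel, at 17.7, 35.3 and 25.7 CPM, and Trpm4, a cation channel, at 20.6, 32.4 and 21.3 CPM. In members with no Slc8a1 or Calb1 UMI, the second ratio was -1.02 for Kcne1 and 0.57 for Trpm4, in place of 0.50 and -0.61, and the first ratio of Trpm4 was 0.014.

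All 13 enriched genes named above had a first ratio below 0, 7 of them past 1.5-fold (6 with size factors), with a median of -0.71. Of all genes, 11.5% were lower, and with a median of -0.16 most of them were also below 0. In the remaining barcodes 7 of the 13 were below 0, none past 1.5-fold, with a median of -0.07. Connecting tubule cells, in which Slc8a1 and Calb1 outnumber Aqp2 and Aqp3, numbered 58, 399 and 270. There all 13 were below 0, 12 past 1.5-fold, with a median of -1.38. For Aqp4 this rests on a floor of 3 counts that replaced its 0 UMIs in db/m control. In db/db control Aqp4 had 7 UMIs (7.91 CPM), so its counts do not show a lower level there. Aside from Aqp4, the lower levels were thus not particular to the members, with only 58 connecting tubule cells in db/m control. In the members all 13 had a second ratio above 0, 5 of them past 1.5-fold, with a median of 0.50. With size factors 11 were above 0 and 4 past 1.5-fold. Of all genes, 20.0% were higher (7.07% with size factors), and with a median of 0.26 most of them were also above 0. Connecting tubule cells had all 13 above 0, 10 past 1.5-fold, with a median of 1.03. In members with no Slc8a1 or Calb1 UMI, 10 of the 13 had a first ratio below 0, 4 past 1.5-fold, with a median of -0.45. There 7 had a second ratio above 0, 2 past 1.5-fold, with a median of 0.050. With no intercalated marker UMI, 11 first ratios were below 0, 2 past 1.5-fold (median -0.36). There 12 second ratios were above 0, 5 past 1.5-fold (median 0.50). With free RNA subtracted, 12 first ratios were below 0, 3 past 1.5-fold (median -0.49). There 11 second ratios were above 0, 4 past 1.5-fold (median 0.23). Mcoln3, a lysosomal cation channel, stood at 311, 154 and 187 CPM, with a first ratio of -1.02 (-1.24 to -0.79), and -0.78 with free RNA subtracted. Btc, the growth factor betacellulin, stood at 465, 260.4 and 340.3 CPM and Cldn4 at 365, 210.4 and 406 CPM. The first ratios of Mcoln3, Btc and Cldn4 were -1.02, -0.84 and -0.80, and in members with no intercalated marker UMI -0.36, -0.58 and -0.098.

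**Figure D2:**
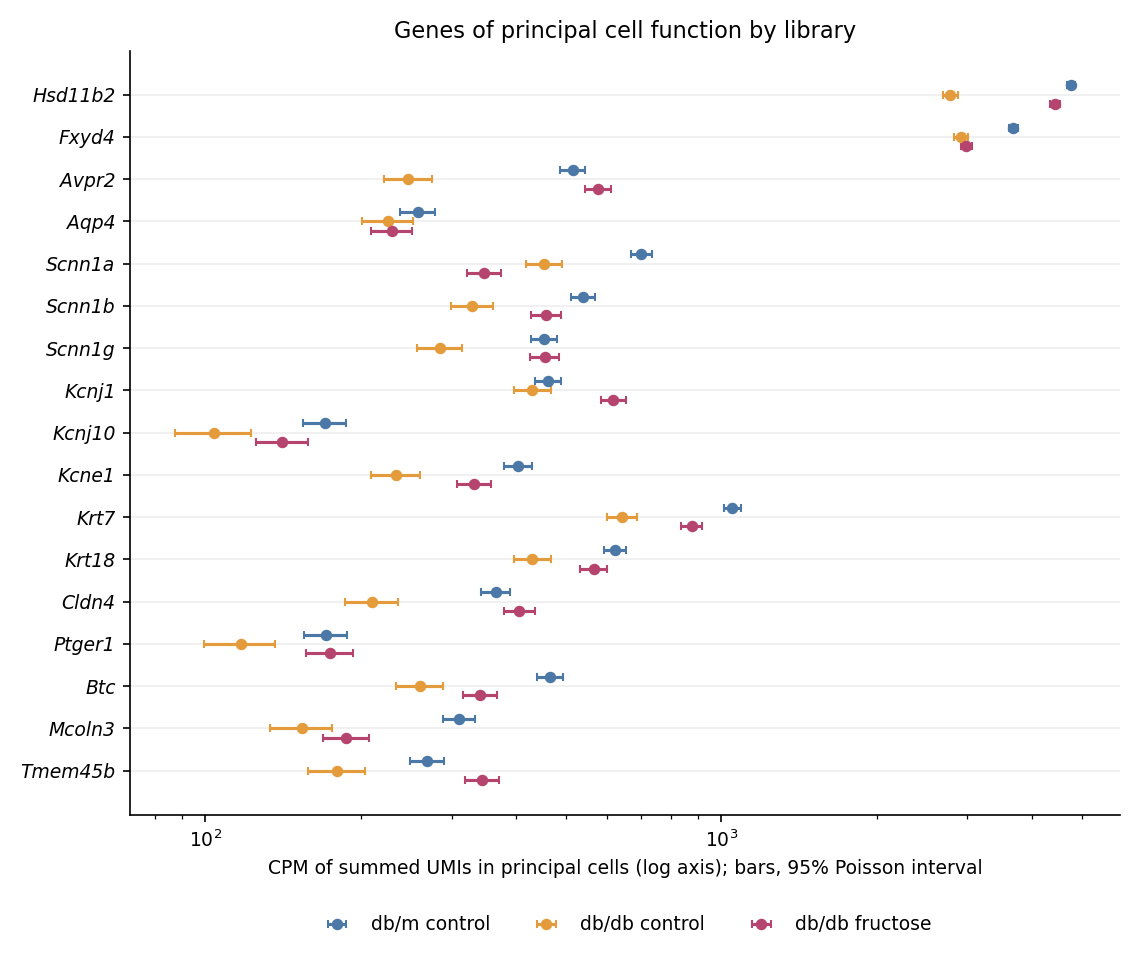
CPM of 17 genes of principal cell function in the members of each library, on a log axis, with 95% Poisson intervals. Avpr2 sits at 247 CPM in the db/db control library against 515 CPM and 578 CPM, Scnn1a is lowest in the fructose library at 347 CPM, and the points of Aqp4 lie between 226 CPM and 258 CPM.

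Of 18 measured genes of tight junctions, adhesion and keratins, none was higher and 5 were lower in the first comparison (2 with size factors), with a median of -0.44, beside 11.5% of all genes lower. In the second, 7 of 19 were higher and none lower (4 with size factors), beside 20.0% of all genes higher, with a median of 0.46. Krt7, a keratin of simple epithelia, stood at 1051, 642 and 876 CPM. F11r, the junctional adhesion molecule A, stood at 179, 116 and 214 CPM, and Cldn7, a claudin of the distal nephron, at 218, 161 and 319 CPM. The db/db control library was lowest for all 3. The first ratio of Krt7 was -0.71, and -0.17 in members with no intercalated marker UMI. The first ratio of Cldn7 was -0.43, and 0.48 in members with no Slc8a1 or Calb1 UMI.

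Among 17 measured genes of the unfolded protein response, none was higher and 7 were lower in the first comparison (1 and 2 with size factors), beside 11.5% of all genes lower, with a median of -0.52. Hspa5, the main chaperone of the endoplasmic reticulum, stood at 431, 272 and 299 CPM, and Calr, calreticulin, at 317, 182 and 226 CPM. Their first ratios were -0.66 and -0.80 in the members and -0.64 and -0.89 in the remaining barcodes. In the second comparison 4 were higher and none lower, beside 20.0% of all genes higher, and with size factors none passed 1.5-fold.

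Among the lowest first ratios were genes of lipid synthesis and the cell surface. Scd2, a fatty acid desaturase, stood at 628, 274 and 334 CPM, with a first ratio of -1.20 (-1.36 to -1.03), while the remaining barcodes had -0.14. That ratio was past 1.5-fold in 12 of 12 other settings, from -1.25 to -1.02. Cav1, the coat protein of caveolae, stood at 217, 92.7 and 195 CPM, with ratios of -1.23 (-1.52 to -0.94) and 1.07 (0.78 to 1.37). Phlda1, a gene of the pleckstrin homology-like family, stood at 176, 79.4 and 290.4 CPM, with ratios of -1.15 (-1.47 to -0.84) and 1.87 (1.57 to 2.18). The db/db control library was lowest for all 3. In members with no Slc8a1 or Calb1 UMI, the first ratio was 0.030 for Phlda1 and -0.39 for Cav1, and the second ratio of Cav1 was 0.34. Of 15 measured lipid genes, 2 were higher and 5 lower in the first comparison (2 and 4 with size factors), with a median of -0.43. Of all genes, 4.96% were higher and 11.5% lower, with a median of -0.16. In the second, 5 were higher and 1 lower (2 and 1 with size factors), with a median of 0.45. There 20.0% of all genes were higher and 2.84% lower, with a median of 0.26.

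Pde10a, a phosphodiesterase of cyclic nucleotides, had the opposite order and stood at 74.97, 187 and 61.8 CPM, with ratios of 1.32 (1.04 to 1.60) and -1.60 (-1.92 to -1.28). The remaining barcodes held 32.5, 37.8 and 49.01 CPM. Mgll, the lipase of monoacylglycerols, stood at 38.3, 110.3 and 58.4 CPM, with ratios of 1.53 (1.15 to 1.91) and -0.92 (-1.28 to -0.56). The db/db control library was highest for both. The second ratio of Mgll was -0.093 in members with no Slc8a1 or Calb1 UMI. Grem1, an antagonist of bone morphogenetic proteins, also peaked there, at 60.1, 118 and 42.05 CPM, with ratios of 0.97 (0.64 to 1.30) and -1.49 (-1.88 to -1.10). The first ratio of Grem1 was 0.25 in members with no intercalated marker UMI.

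Lcn2, Clu and Spp1, known as markers of tubule injury, were higher in both db/db libraries than in db/m control. Lcn2, which encodes the secreted iron carrier NGAL, stood at 54.8, 137 and 179.6 CPM, with ratios of 1.32 (0.99 to 1.65) and 0.39 (0.13 to 0.65). Clu, the extracellular chaperone clusterin, stood at 262, 513 and 1286 CPM, with ratios of 0.97 (0.81 to 1.13) and 1.33 (1.21 to 1.45). Spp1, osteopontin, stood at 339, 881 and 1175 CPM, with ratios of 1.38 (1.25 to 1.51) and 0.42 (0.32 to 0.52). Over all members, these 3 genes were lowest in db/m and highest in fructose. In members with no Slc8a1 or Calb1 UMI, the second ratio was 0.51 for Clu, 0.95 for Spp1 and -0.27 for Lcn2. Lcn2 stood there at 59.9, 182 and 151 CPM, highest in the db/db control library. The remaining barcodes had first ratios of 2.32 for Lcn2, 1.32 for Clu and 0.59 for Spp1. Lcn2 UMIs were found in 12.1%, 14.8% and 21.9% of the members (3.12%, 6.77% and 9.26% at 1000 UMIs) against 0.183%, 0.684% and 1.20% of proximal tubule cells, and Clu UMIs in 34.05%, 45.6% and 64.8% (14.6%, 25.6% and 42.3%) against 7.83%, 22.9% and 19.6%.

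The injury list had 14 measured genes in the first comparison, 4 higher and 1 lower, beside 4.96% and 11.5% of all genes, with a median of 0.011. The fourth higher gene was Ccn2 and the lower one Nfkbia, a feedback inhibitor of NF-kappa B, both named after their values were seen. In the second comparison 6 of 15 were higher and 1 lower (4 and 2 with size factors), beside 20.0% and 2.84% of all genes, with a median of 0.48. Beside Clu, the higher genes included Tnfrsf12a, the TWEAK receptor, at 25.4, 21.3 and 59.9 CPM, and Ccn1, a matrix signalling protein, at 65.3, 62.5 and 133 CPM. The lower gene was Wfdc15b, a protease inhibitor gene, at 166, 187 and 70.2 CPM, with a second ratio of -1.41, and -0.46 in members with no Slc8a1 or Calb1 UMI.

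The highest second ratios included calcium and hormone genes. S100g (ENSMUSG00000040808, mm10 chrX:162961992-162964599, minus strand), which encodes the calcium carrier calbindin-D9k, stood at 1961, 2419 and 11392 CPM, with ratios of 0.30 (0.24 to 0.37) and 2.24 (2.18 to 2.29). Trpv5, the apical calcium channel, stood at 29.02, 22.1 and 182 CPM, with a second ratio of 3.04 (2.50 to 3.63). Stc1 (ENSMUSG00000014813, mm10 chr14:69029238-69041804, plus strand), which encodes the hormone stanniocalcin-1, stood at 144, 100.04 and 502 CPM, with ratios of -0.52 (-0.82 to -0.24) and 2.33 (2.07 to 2.60). The fructose library was high and the control libraries low for all 3. In the remaining barcodes the second ratios were 0.38 for S100g, 0.83 for Trpv5 and 1.46 for Stc1. Stc1 UMIs were found in 31.6%, 19.5% and 54.9% of the members (11.6%, 7.52% and 28.8% at 1000 UMIs) against 0.798%, 0.857% and 1.50% of proximal tubule cells. Calb1 and Slc8a1, which the rule bounds from above, stood at 692, 745 and 1641 CPM and at 142, 261 and 541 CPM, as a description.

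S100g and Trpv5 mark the neighbouring connecting tubule, so the members were split by whether they held any Slc8a1 or Calb1 UMI, which 67.9%, 77.9% and 84.0% did. The 6 connecting tubule markers, among them Slc8a1 and Calb1 and none at 0, summed to 3796, 4381 and 15448 CPM in the members and 1459, 4131 and 4357 CPM in the remaining barcodes. Members without such a UMI (180, 94 and 76 cells) held 500.4, 305 and 748 CPM of S100g, and those with one (381, 331 and 398 cells) held 2299.7, 2901 and 12556 CPM. Cells of the connecting tubule rule, in which Slc8a1 and Calb1 outnumber Aqp2 and Aqp3 (58, 399 and 270 cells), held 7896, 6119.9 and 11901 CPM. Members without a Slc8a1 or Calb1 UMI thus held the least S100g in every library, and the second ratio there was 1.30 in place of 2.24. S100g UMIs were also found in 10.1%, 56.7% and 45.6% of proximal tubule cells, so the share of members with that gene was not read.

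Members without a Slc8a1 or Calb1 UMI held 36.4, 31.7 and 221 CPM of Stc1, for a second ratio of 2.80, and connecting tubule cells held 115, 42.9 and 166 CPM. Avpr2 stood at 404, 182 and 351 CPM without such a UMI, at 540.4, 262 and 603 CPM with one and at 151, 61.00 and 173 CPM in connecting tubule cells. The receptor was thus lowest in the db/db control library in each of the 3 sets of cells. Hsd11b2 stood at 2733, 1872 and 1938 CPM without such a UMI, where its second ratio was 0.050 in place of 0.67. In connecting tubule cells Hsd11b2 stood at 2300, 782 and 1600 CPM. Fxyd4 stood at 2162, 2687 and 2399 CPM without such a UMI and at 548, 128 and 337 CPM in connecting tubule cells. Members without such a UMI were shallower, with medians of 1930.5, 2034.5 and 1708 UMIs against 4571, 2949 and 3701.5. The part of a differing mix of collecting duct and connecting tubule cells was not tested beyond this split.

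**Figure D3:**
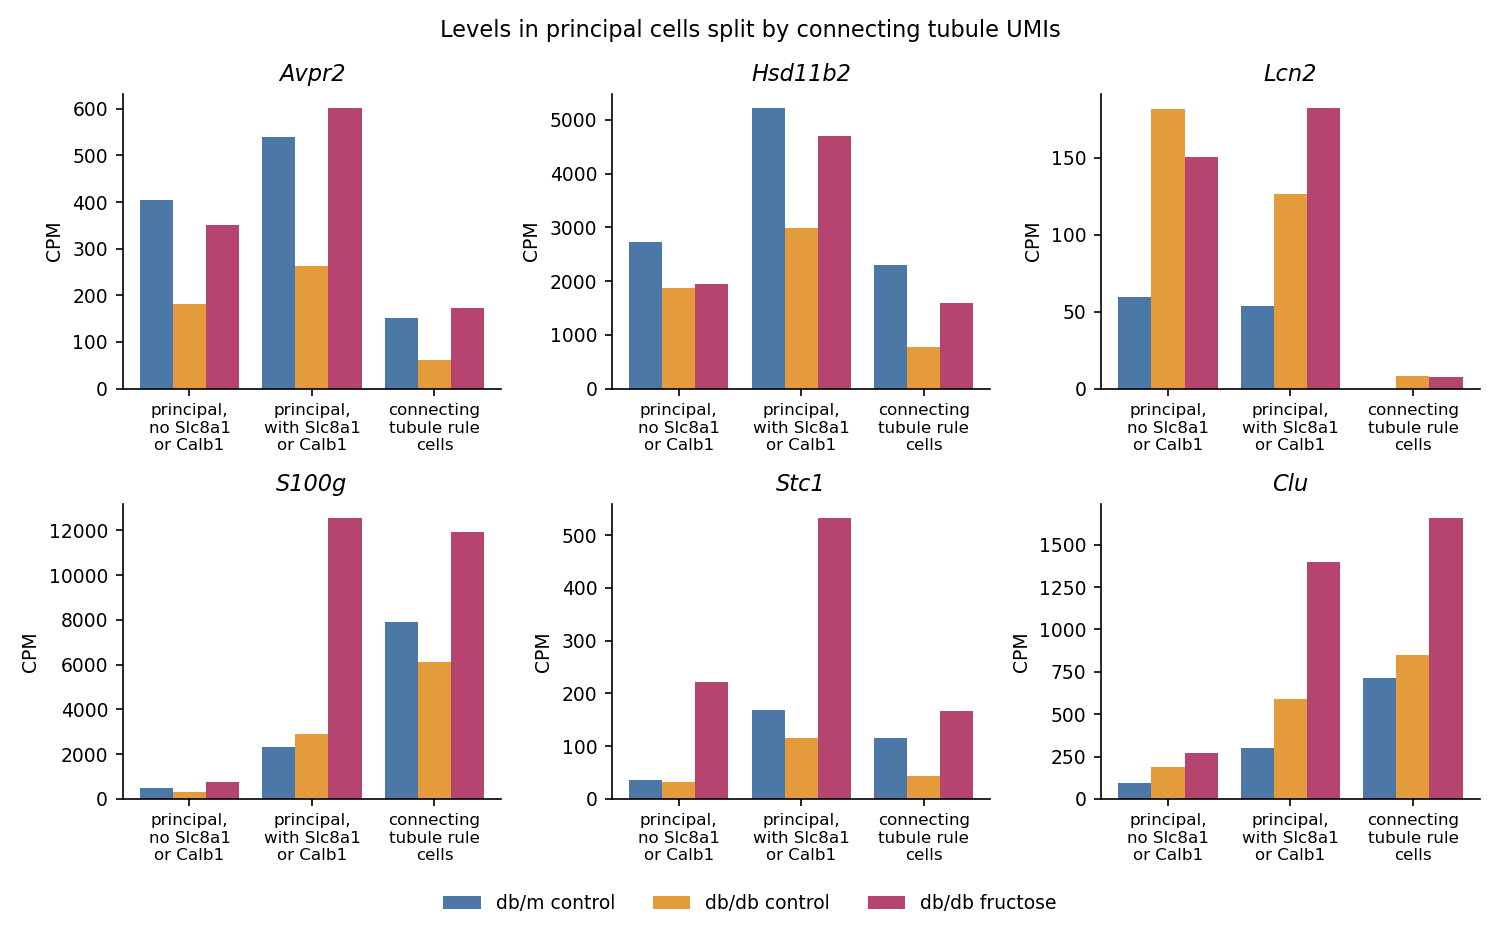
CPM of 6 genes in principal cells without and with a Slc8a1 or Calb1 UMI and in cells of the connecting tubule rule, by library; bars start at 0 and come from 1 library each. Avpr2 and Stc1 are higher in fructose than in db/db control in each set of cells, and S100g is low in all libraries where Slc8a1 and Calb1 are absent.

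A second split used Aqp4, which the rule did not use. Members with an Aqp4 UMI numbered 161, 109 and 122 and those without 400, 316 and 352, with median depths of 5602, 3792 and 5970 and 2878.5, 2403 and 2706.5 UMIs. Lcn2 stood at 118, 325 and 374 CPM in members with an Aqp4 UMI and at 10.9, 41.1 and 59.3 CPM in the others. Klk1 had the reverse order, at 138, 353 and 186 CPM and 1177, 966 and 2236 CPM, and so did S100g, at 809, 673 and 3888 CPM and 2763, 3308 and 16039.5 CPM. Lcn2 transcripts were thus denser in the Aqp4-bearing members of every library, and Klk1 and S100g transcripts in the others. Avpr2 was lowest in the db/db control library in both, at 763, 397 and 848 CPM with an Aqp4 UMI and at 341, 171 and 410.1 CPM without.

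Nr1d1 (ENSMUSG00000020889, mm10 chr11:98767932-98775333, minus strand), which encodes the repressor REV-ERB alpha, stood at 6.05, 13.98 and 119 CPM, with a second ratio of 3.09 (2.41 to 3.84). Its relative Nr1d2 stood at 8.87, 11.8 and 36.6 CPM, and Dbp, a clock output factor, at 11.7, 8.83 and 27.7 CPM. These 3 were highest in the fructose library. The second ratio of Nr1d2 was 1.64, and 0.20 in members with no intercalated marker UMI. Per2, a clock repressor, stood at 62.5, 43.4 and 16.3 CPM, with a second ratio of -1.41 (-2.07 to -0.77). Cry1, another clock repressor, stood at 23.4, 21.3 and 8.90 CPM. Both were lowest in the fructose library. Of 14 measured clock genes, 4 were higher and 3 lower in the second comparison, beside 20.0% and 2.84% of all genes, and of 12 in the first, none was higher and 1 lower, Bhlhe40, named after its value was seen. The fourth higher gene, Tef, was named likewise. In the remaining barcodes the second ratios were 2.14 for Nr1d1, 3.47 for Dbp and 0.053 for Per2. Nr1d1 UMIs were found in 2.50%, 4.47% and 32.1% of the members and in 2.19%, 3.36% and 15.1% of proximal tubule cells, and at 1000 UMIs per cell in 0.551%, 1.40% and 11.1% and in 1.03%, 1.72% and 8.83%. The hour at which the kidneys were taken is not given in the sources used here.

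**Figure D4:**
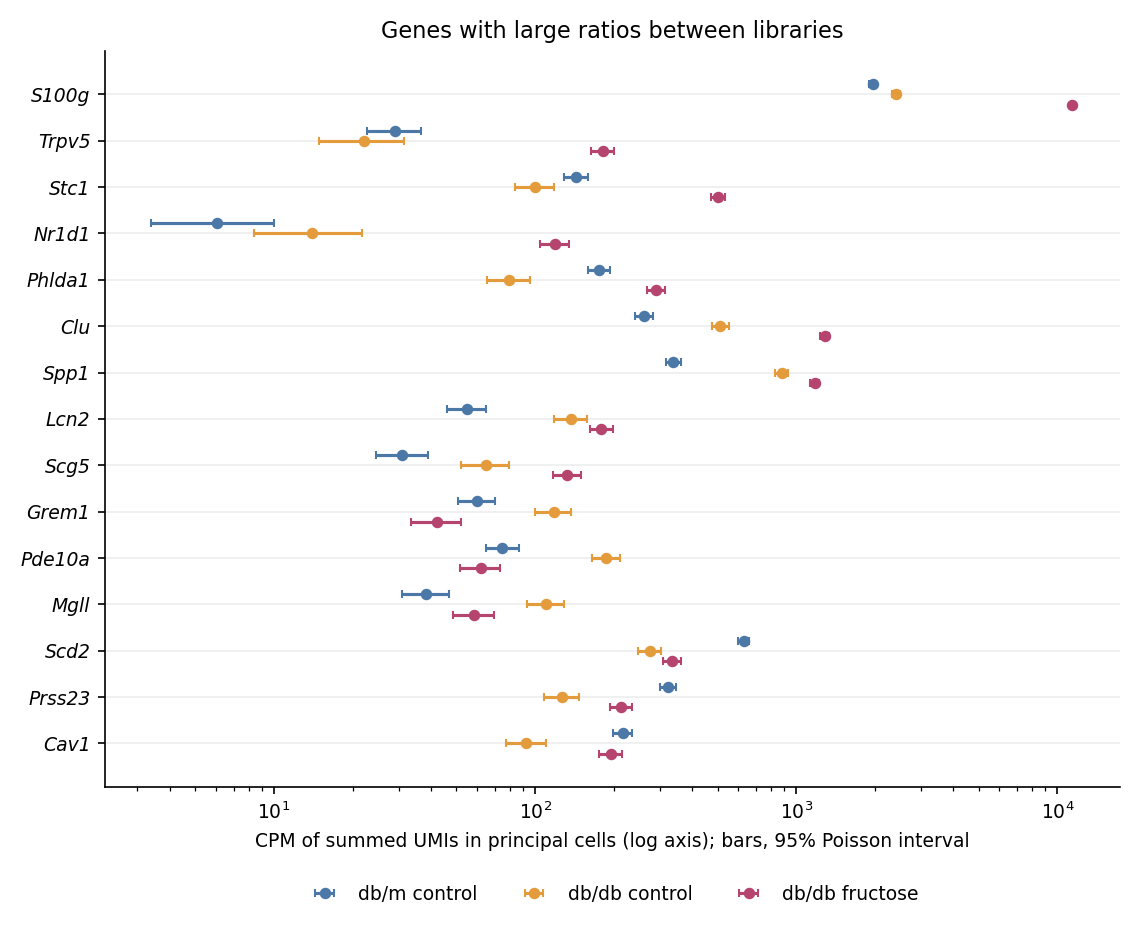
CPM of 15 genes with large ratios between libraries, in the members of each library, on a log axis with 95% Poisson intervals. S100g, Trpv5, Stc1 and Nr1d1 are highest in the fructose library, Pde10a, Mgll and Grem1 in the db/db control library, and Scd2 and Cav1 in the db/m control library.

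Of 24 measured transcription factors of the collecting duct, 7 were higher and 1 lower in the second comparison (2 and 2 with size factors), with a median of 0.35. Of all genes, 20.0% were higher and 2.84% lower (7.07% and 7.04% with size factors). Elf5, an ETS factor of principal cells, stood at 47.2, 34.6 and 60.3 CPM, and Hoxd10, a homeobox gene, at 45.1, 30.2 and 76.7 CPM. The second ratio of Hoxd10 was 1.35, and -0.24 in members with no Slc8a1 or Calb1 UMI. The lower gene was Foxi1, the master factor of intercalated cells, at 21.8, 38.3 and 19.3 CPM, and 5 cells held 61.1%, 59.6% and 61.5% of its UMIs. Among local signals, Ptges, the prostaglandin E synthase, stood at 167, 121 and 271 CPM, with a second ratio of 1.16 (0.91 to 1.42), and 0.14 in members with no Slc8a1 or Calb1 UMI. The prostaglandin receptor gene Ptger1 stood at 171, 117 and 174 CPM. In that list 4 of 9 measured genes were higher and 1 lower (2 and 1 with size factors), beside 20.0% and 2.84% of all genes.

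Of 6 measured genes of fructose and polyol use, 2 were higher and none lower in the first comparison, beside 4.96% and 11.5% of all genes, with a median of 0.20 beside -0.16. The 2 were Tkfc, a triose kinase, at 23.8, 46.3 and 54.9 CPM, and Akr1b3, aldose reductase, at 76.6, 118 and 117 CPM. The first ratio of Akr1b3 was 0.62, and -0.41 without the 5 members richest in it in each library. In db/db fructose over db/db control, 1 of 7 measured genes was higher and none lower, beside 20.0% and 2.84% of all genes. Their median was 0.24 beside 0.26 for all genes. The higher gene was Slc2a9, a urate and sugar transporter at 9.27, 14.7 and 27.2 CPM. Its ratio was 0.89, and -1.42 in members with no Slc8a1 or Calb1 UMI. Among 12 measured tonicity and osmolyte genes, 3 were higher and none lower in the first comparison, beside 4.96% of all genes higher, among them Slc5a3, the inositol transporter, at 52.4, 80.2 and 61.3 CPM. Of 22 nuclear genes of oxidative phosphorylation none passed 1.5-fold in either comparison. Of all genes, 4.96% were higher and 11.5% lower in the first, and 20.0% and 2.84% in the second. Of 13 mitochondrial genome transcripts, 10 were higher in the first comparison and 12 lower in the second, with medians of 0.62 and -0.93, and because the rule bounds the mitochondrial share these counts are a description.

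**Figure D5:**
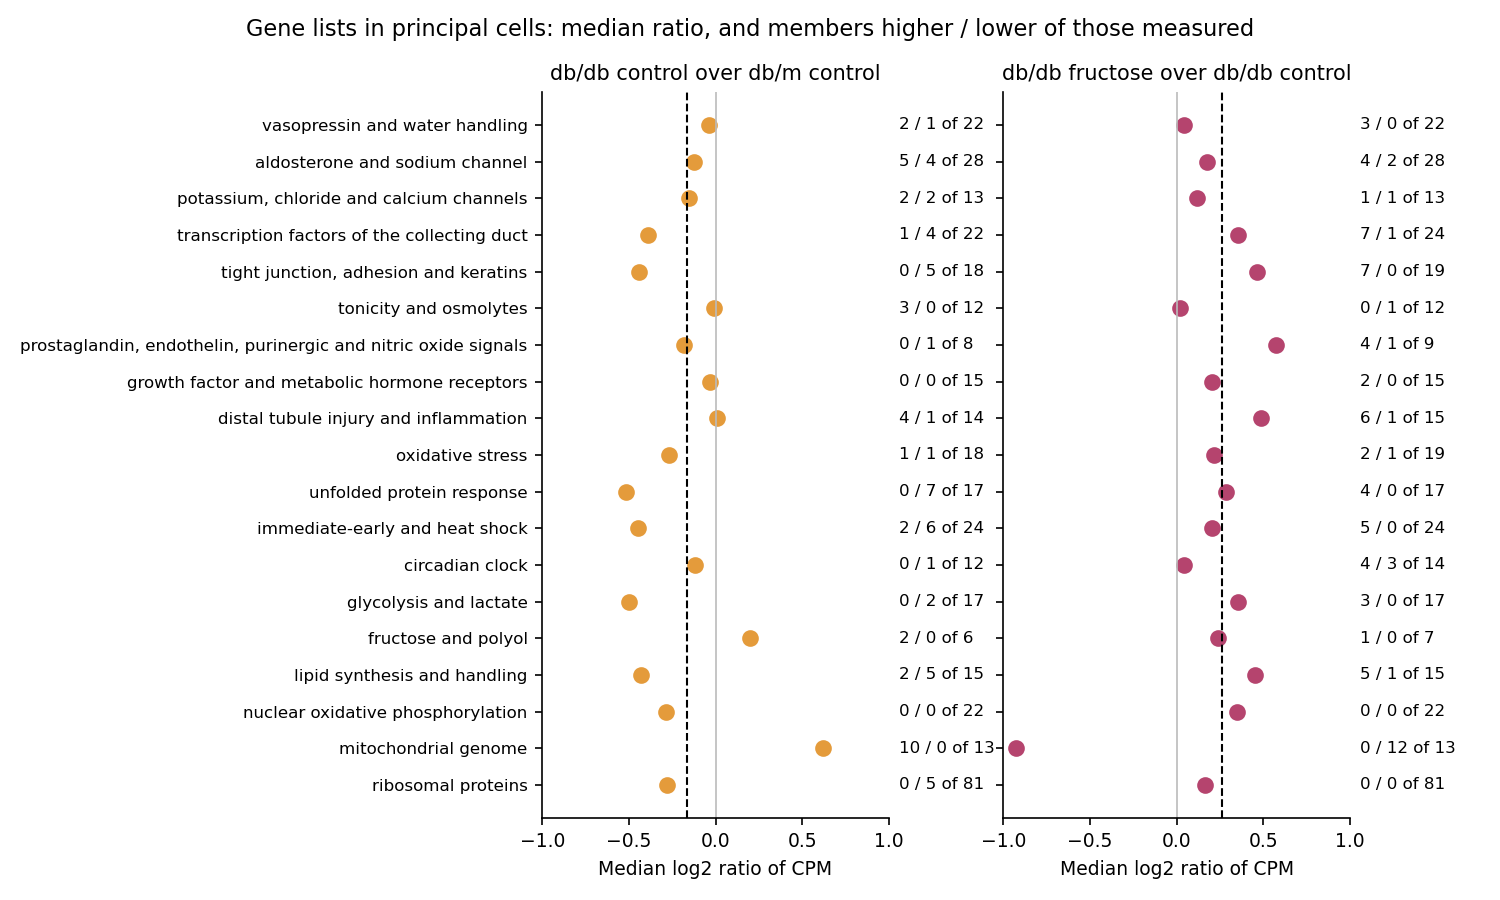
Median log2 ratio of CPM for the lists with at least 5 measured genes in each comparison. The dashed line is the median of all measured genes, and the labels beside each panel give the genes 1.5-fold or more higher and lower of those measured; mitochondrial genome transcripts, at 0.62 and -0.93, lie farthest from the dashed lines.

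Some transcripts of other cells were held by few members and others were spread over many. The 11 intercalated cell markers, none at 0, summed to 921, 1139 and 786 CPM, and to 343, 460 and 280 CPM in the remaining barcodes. At least 1 of their UMIs was found in 64.7%, 57.6% and 58.9% of the members, and 3 or more in 30.3%, 12.5% and 22.2%. Members with 10 or more numbered 19, 15 and 12, and members with none 198, 180 and 195. Atp6v1g3, a proton pump subunit of intercalated cells, had 46.6%, 45.2% and 68.2% of its UMIs in 5 cells, and its first ratio of 0.87 was -0.082 in members with at least 8 aquaporin UMIs. The 8 mononuclear phagocyte markers summed to 13.7, 409 and 120 CPM, with C1qb, Csf1r and Fcer1g at 0 in the db/m library. In the db/db control library 5 cells held 95.4% of the Lyz2 UMIs. Red cell markers summed to 276, 518 and 9.89 CPM. Lymphocyte markers were all at 0 in the control libraries, and 5 of 6 in the fructose library.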

How the data were processed

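Whole kidneys of 3 groups of mice were digested to single cells and sequenced on the 10x Genomics platform, per the labels' protocols, with 1 library per group. Each deposited file is a filtered matrix of UMI counts per gene and barcode, which the authors made with Cell Ranger 6.0.0 on mm10, per the submitters' processing notes. The libraries held 13524, 26513 and 20383 barcodes and 31660184, 52704335 and 42028885 UMIs over 32285 genes (db/m control, db/db control, db/db fructose). Gene coordinates follow GENCODE M21 on mm10, and promoter sequences are from RefSeq, GRCm38.p6.

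The members and the gene lists were chosen with earlier results of these data known. UMIs were summed over the members of each library and scaled to CPM, counts per 1000000. With 1 library per group no test, SE or p-value was computed. Leaving the rule's 6 genes aside, a gene needed 20 CPM in the higher library to be measured and a 1.5-fold difference to be called. Intervals are exact: Poisson for a level, conditional binomial for a ratio, Clopper-Pearson for a share. They cover counting error only. Proximal tubule and connecting tubule cells were called by marker rules of the same kind. Shares of cells with a UMI were also computed after thinning to 1000 UMIs. Doublets were not removed, and an alternative removed the barcodes with the highest Scrublet scores, at 0.8% per 1000 barcodes. Other alternatives changed the aquaporin minimum (3 or 8), the gene minimum (500), the mitochondrial limit (30%), the CPM minimum (10 or 50), the fold (2), the scaling, the free RNA and the members included.

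Named genes were, for each comparison, the 12 genes at either end of the ratios that reached 50 CPM in the higher library and there stood no lower than in the remaining barcodes, the 15 genes most enriched in the members with at least 100 CPM, all measured genes of the first 3 lists and up to 6 of each other list, from which the text names those that describe the groups; some are not reported here. The calculation was tested on simulated data. Python 3.11.15, NumPy 2.4.6, SciPy 1.17.1, pandas 2.3.3, scanpy 1.11.5 and matplotlib 3.10.9 were used.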

Additional observations from a re-analysis of the deposited data

How the results depend on the processing

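The share of principal cells kept its order over the libraries in every alternative. It was 5.63%, 2.50% and 2.77% with a minimum of 3 Aqp2 and Aqp3 UMIs and 3.79%, 1.41% and 1.88% with a minimum of 8. It was 5.82% and 2.34% in the db/m and db/db control libraries with at least 500 genes per barcode, and 2.23% in the fructose library with at most 30% mitochondrial UMIs. Counts of genes moved more. In db/db control over db/m control, 338 genes were higher, against 648 with size factors, 100 at a minimum of 50 CPM, 679 at 10 CPM, 102 at a fold of 2, 551 with free RNA subtracted, 977 in members with no Slc8a1 or Calb1 UMI, 853 in members with no intercalated marker UMI and 785 by CPM without mitochondrial UMIs. The 787 lower genes became 380 with size factors, 386 at 50 CPM, 121 at a fold of 2, 1592 with no Slc8a1 or Calb1 UMI, 1394 with no intercalated marker UMI and 460 without mitochondrial UMIs. In db/db fructose over db/db control, the 1429 higher genes became 506 with size factors, 635 at 50 CPM, 277 at a fold of 2, 2917 with no Slc8a1 or Calb1 UMI, 2227 with no intercalated marker UMI and 746 without mitochondrial UMIs. The 203 lower genes became 504, 69, 58, 922, 490 and 520 in the same 6 settings, 348 at 10 CPM and 591 with free RNA subtracted. Members with no Slc8a1 or Calb1 UMI, or no intercalated marker UMI, are fewer and shallower. The cause of the shifts was not tested in these settings or in the others. Of 78 ratios of the genes named here that were past 1.5-fold, 14 changed sign under some setting, and of 58 under 1.5-fold, 43 did, 30 of them in members with no Slc8a1 or Calb1 UMI. First ratios past 1.5-fold that turned were Atp6v1g3 (-0.082 at a minimum of 8 aquaporin UMIs, -0.27 in members with Fxyd4 and Hsd11b2 UMIs), Akr1b3 (-0.41 without the 5 members richest in it), Wnk1 and Zbtb16 with free RNA subtracted (-3.001 and -0.19), Zbtb16 and Phlda1 with no Slc8a1 or Calb1 UMI (-0.53 and 0.030) and Nr3c1 with no intercalated marker UMI (-0.059). Second ratios past 1.5-fold that turned were Klk1 (-0.53 with no intercalated marker UMI, -0.19 without the 5 members richest in it) and, with no Slc8a1 or Calb1 UMI, Hoxd10 (-0.24), Slc2a9 (-1.42), Trpm4 (0.57), Foxi1 (0.55), Prkar1a (-0.35), Vapa (-0.17) and Tsc22d3 (0.85). The alternatives of CPM without mitochondrial UMIs, of members with both Fxyd4 and Hsd11b2 UMIs and without the 5 members richest in a gene were chosen after seeing the data. No paired analysis was possible because each group has 1 library, and for the same reason no replicate could be left out. Depth limits genes near 20 CPM most in the db/db control members, which hold 1359396 UMIs.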
